A study of Homo sapiens with 2 samples.

Results

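The promoters of 8 genes of the WNT pathway were examined in H3K27ac HiChIP data of HCT116 cells. The genes were the WNT targets AXIN2, LGR5, ASCL2, RNF43 and ZNRF3 and the effectors TCF7L2, CTNNB1 and LEF1, out of 19812 protein-coding genes. They were chosen by name, with earlier results of these data known. A loop of a gene was a pair of anchors. Of these, 1 overlapped the transcription start site ± 2.5 kb and the other lay up to 1 Mb away. An anchor is a region of the genome to which the read pairs were assigned. Its ends lie at restriction sites, and further such sites can lie inside it. This gave 275 loops among the 2827456 pairs of different anchors in the whole data, with 144 loops in replicate 1 and 193 in replicate 2. For 7 of the 8 genes, 9 anchors were found, whereas no anchor lay at ASCL2, so ASCL2 had no value.

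HCT116 cells, an established line from a human colorectal carcinoma, were grown here without any treatment. HiChIP joins chromatin fragments that are close in the nucleus and then enriches them with an antibody, here against H3K27ac, a mark of active enhancers and promoters. There was 1 condition with 2 replicates, and the labels do not say whether these came from separate cultures. A value of these data is therefore a level in this line, and no condition was compared with another.

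In WNT signaling, β-catenin, encoded by CTNNB1, is held low by a destruction complex that contains APC, axin and the kinases GSK3 and CK1. When WNT ligands bind Frizzled and LRP receptors, the complex is inhibited, and β-catenin enters the nucleus and acts with the DNA-binding proteins TCF7L2 and LEF1 on target genes. Among these targets, AXIN2 rebuilds the destruction complex, RNF43 and ZNRF3 remove Frizzled from the cell surface, LGR5 is a receptor of R-spondins, which inhibit RNF43 and ZNRF3, and ASCL2 is a transcription factor of intestinal stem cells. The pathway is active in most colorectal cancers, and HCT116 carries a stabilising mutation of CTNNB1.

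The sequences shown are those of the TCF7L2 and RNF43 promoters and of the middle of partner anchors that they contacted. Counts are per anchor, so they do not place a contact within these bases. For TCF7L2 these are the 2 partners with the most counts at 20 kb or more, and for RNF43 the partner was picked because it holds motif matches. They were read from the hg19 genome and are shown 5′ to 3′, the promoters as the 250 bases before the start and the partners as 300 bases. Capitals mark matches to the TCF/LEF motif, searched on both strands as CTTTG followed by 2 letters, each of which is A or T. No other motif was searched.
TCF7L2 promoter, chr10:114709756-114710005, plus strand: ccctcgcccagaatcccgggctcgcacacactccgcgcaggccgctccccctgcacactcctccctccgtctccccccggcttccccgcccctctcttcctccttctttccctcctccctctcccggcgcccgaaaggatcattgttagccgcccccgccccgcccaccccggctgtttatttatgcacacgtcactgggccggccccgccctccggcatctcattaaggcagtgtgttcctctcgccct
VTI1A intron, partner of TCF7L2, chr10:114277527-114277826, plus strand: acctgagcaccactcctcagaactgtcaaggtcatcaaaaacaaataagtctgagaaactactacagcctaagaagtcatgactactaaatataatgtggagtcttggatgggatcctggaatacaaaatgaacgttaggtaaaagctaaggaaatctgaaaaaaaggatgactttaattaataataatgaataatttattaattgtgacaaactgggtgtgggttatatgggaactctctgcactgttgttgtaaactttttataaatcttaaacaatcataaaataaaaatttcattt
Middle of the VTI1A exon 5 anchor, second partner of TCF7L2, chr10:114296630-114296929, plus strand: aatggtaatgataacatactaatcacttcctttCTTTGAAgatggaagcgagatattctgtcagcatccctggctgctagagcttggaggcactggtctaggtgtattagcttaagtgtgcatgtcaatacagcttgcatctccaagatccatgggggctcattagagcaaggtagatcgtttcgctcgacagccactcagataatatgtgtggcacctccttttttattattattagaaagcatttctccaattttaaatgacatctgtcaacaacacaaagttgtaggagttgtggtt
RNF43 promoter, chr17:56494896-56495145, minus strand: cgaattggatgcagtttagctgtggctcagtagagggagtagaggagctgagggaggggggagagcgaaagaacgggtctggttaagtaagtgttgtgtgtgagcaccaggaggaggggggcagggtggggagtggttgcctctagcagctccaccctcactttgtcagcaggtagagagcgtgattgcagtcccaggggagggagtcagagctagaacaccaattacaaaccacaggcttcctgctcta
RNF43 intron, partner of the RNF43 promoter, chr17:56461507-56461806, plus strand: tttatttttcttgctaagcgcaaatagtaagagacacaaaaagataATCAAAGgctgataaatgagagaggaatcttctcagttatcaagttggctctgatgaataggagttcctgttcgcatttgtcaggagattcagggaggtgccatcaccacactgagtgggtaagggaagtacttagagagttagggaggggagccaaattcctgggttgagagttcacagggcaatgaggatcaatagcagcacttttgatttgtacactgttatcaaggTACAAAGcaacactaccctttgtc

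No match was found within 250 bases before to 50 after the start of any of the 8 genes, and 10.4% of all 19812 promoters held a match in this window of 300 bases. Of the partners shown, the intron of RNF43 held 2 matches, which 3.69% of all anchors reached or exceeded in their central 300 bases, and 24.0% of all anchors held at least 1. The other 2 partners of RNF43 named below, including the one with the most counts, held none there. Over whole anchors, the density was 0.945 matches per kb in all anchors and 0.684 in the promoter anchors of protein-coding genes. The AXIN2 promoter anchor had 7 matches in 3.40 kb (2.06 per kb) and the TCF7L2 promoter anchor 18 in 15.1 kb (1.19 per kb). The RNF43 promoter anchor had 2 in 2.22 kb (0.900 per kb). Of the 9 promoter anchors of the set, AXIN2 had the highest density and LEF1 the lowest, at 0.708 per kb. A match is a description of these letters and not of a bound site.

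The counts of all anchor pairs summed to 1885481 in replicate 1 and 2131466 in replicate 2, of which 16.0% and 14.2% joined an anchor with itself and were left out. Among the 8 genes, 236 counts in replicate 1 and 300 in replicate 2 joined a promoter to an anchor within 1 Mb (268 ± 45.3, SD, n = 2). Most loops were thin, as 186 of the 275 loops (67.6%) had a single count over both replicates and 62 were found in both. Promoters of 10 epithelial and intestinal genes all had an anchor and a median of 12.3 contacts per kb of anchor over both replicates (7.03 to 23.3). The keratin genes KRT8 and KRT19 were the highest, at 23.3 each, whereas EPCAM (9.90), VIL1 (8.79) and CDX2 (7.83) lay below the median. Of 11 genes of other cell types, 10 were annotated and 9 had an anchor, with a median of 4.22 (2.36 to 8.02), beside a median of 7.30 for all 16467 protein-coding genes with an anchor.

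The number of contacts differed widely between the WNT genes. To compare genes, the counts were divided by the width of the promoter anchors, since wide anchors collect more tags. The ubiquitin ligase gene RNF43 had 31 contacts in replicate 1 and 59 in replicate 2, or 14.0 and 26.6 per kb. The effector TCF7L2 had the most contacts of the set, 129 and 148, but in a wide anchor of 15.1 kb, so that the level was 8.54 and 9.80 per kb. The destruction complex gene AXIN2 had 24 and 20 contacts, or 7.06 and 5.88 per kb. Thus, RNF43 lay above TCF7L2 in both replicates, and AXIN2 lay below both in each replicate.

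ZNRF3, the relative of RNF43, had 35 and 36 contacts in 2 anchors, or 4.87 and 5.00 per kb. LEF1, a partner of β-catenin like TCF7L2, had 1 and 9 contacts, or 0.708 and 6.37 per kb. The receptor gene LGR5 had 8 and 18 contacts, or 1.53 and 3.44 per kb, in 2 anchors of which neither held the start site. CTNNB1, the gene of β-catenin itself, had 8 and 10 contacts, or 2.01 and 2.51 per kb. The replicates of LEF1 overlapped the levels of AXIN2, ZNRF3, LGR5 and CTNNB1, so its place in the order was not settled.

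**Figure D1:**
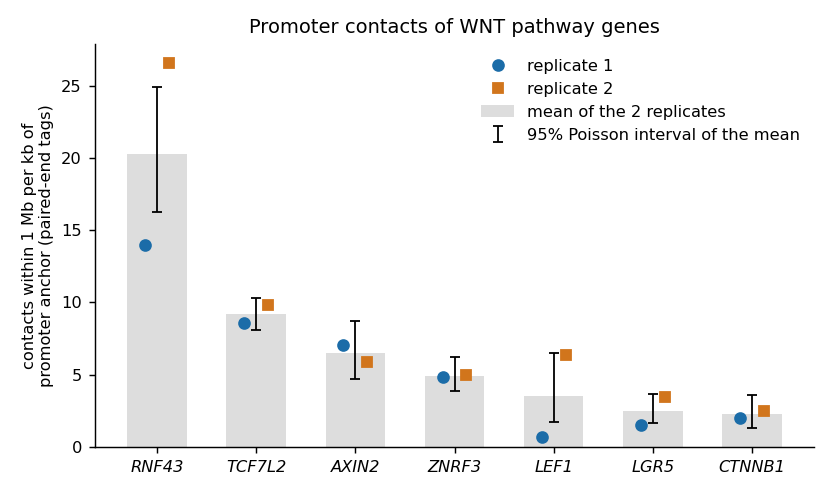
Contacts within 1 Mb per kb of promoter anchor (paired-end tags) for the 7 genes with an anchor, with points for each replicate, bars for the mean of both replicates and error bars for its exact 95% Poisson interval. RNF43 sits at 14.0 and 26.6, above all other genes in both replicates, and CTNNB1 at 2.01 and 2.51.

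Over both replicates, the levels were 40.5 contacts per kb for RNF43, 18.3 for TCF7L2, 12.9 for AXIN2, 9.87 for ZNRF3, 7.08 for LEF1, 4.97 for LGR5 and 4.52 for CTNNB1. RNF43 stood at the 99.97th percentile of the protein-coding genes with an anchor, TCF7L2 at the 95.5th, AXIN2 at the 85.1st and CTNNB1 at the 21.7th. The level of RNF43 was 2.21 times that of TCF7L2 (exact 95% interval of the ratio, 1.72 to 2.81), and that of TCF7L2 was 1.42 times that of AXIN2 (1.03 to 2.00). The other neighbours in the order did not differ beyond counting error, with AXIN2 over ZNRF3 at 1.31 (0.879 to 1.94), ZNRF3 over LEF1 at 1.39 (0.716 to 3.03), LEF1 over LGR5 at 1.42 (0.613 to 3.05) and LGR5 over CTNNB1 at 1.10 (0.579 to 2.13). All intervals cover counting error only, as the tags carry no molecular identifiers.

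The depth of the surroundings separated the first 3 genes of this order from the others. Within 2.5 Mb on either side, the contacts per kb of anchor were 1.97 times the genome-wide level around TCF7L2, 1.88 times around RNF43 and 1.75 times around AXIN2, compared with 1.18 around ZNRF3, 1.01 around CTNNB1, 0.953 around ASCL2, 0.924 around LGR5 and 0.904 around LEF1. Within the first 3 genes and within the others, the order of the depths was not that of the levels, and the part of this depth, or of the copy number of these regions, in the levels of the genes was not tested. The RNF43 anchor also holds the start of ENSG00000285897, and its counts cannot be told apart from those of RNF43.

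No single loop of the WNT genes exceeded the count expected from its distance and the depth of its anchors at an adjusted p under 0.05 (one-sided exact Poisson test, p-values adjusted after Benjamini-Hochberg for the 51094598 anchor pairs within 2 Mb). Of all these pairs, 22 were called (4.31e-05%). At an unadjusted p under 0.05, 61 of the 275 WNT loops (22.2%) passed, close to the 20.8% of the loops of all protein-coding promoters. For 39 of the 275 loops (14.2%), the exact 95% interval lay above the expected count, beside 10.4% of the loops of all protein-coding promoters. Many of these were single counts between thinly covered anchors. Because of these thin counts, contacts were also gathered in windows of 50 kb from the start site.

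TCF7L2 (chr10:114710006-114927437, plus strand) was the gene of the set whose promoter had windows above expectation, and they lay far upstream, inside the gene VTI1A. Its promoter anchor, chr10:114705413-114720510, holds exons 1 to 3. In the window 400 to 450 kb upstream, replicate 1 had 20 contacts with 5.57 expected and replicate 2 had 23 with 6.63 expected. In the window 450 to 500 kb upstream, replicate 1 had 14 with 3.52 expected and replicate 2 had 17 with 3.88 expected. Both replicates were thus well above expectation in both windows.

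Over both replicates, the nearer window had 43 contacts, 3.52 times the expected 12.2 (exact 95% Poisson interval, 2.55 to 4.74, adjusted p = 9.71e-07), and the farther one 31 contacts, 4.19 times the expected 7.405 (2.84 to 5.94, adjusted p = 7.67e-06; one-sided exact Poisson test, Benjamini-Hochberg over 620791 windows of all protein-coding genes). These were the only 2 windows called among the 280 of the WNT genes, of which 12 (4.29%) had an unadjusted p under 0.05, compared with 3.07% of all windows. Of all windows, 215 (0.0346%) were called, and of the 365419 windows at 400 kb or more, 67 (0.0183%). At least 1 window was called in 207 of the 16467 genes with an anchor (1.26%), a share not matched for depth. The TCF7L2 promoter, with 277 contacts, stood at the 99.98th percentile of contacts of these genes. Other genes of the set with an anchor had 10 to 90 contacts. Fewer counts were expected in their far windows, so the lack of calls there does not set TCF7L2 apart from them. By the same exact test, in replicate 1 alone the nearer window passed (adjusted p = 0.0429) and the farther one did not, and in replicate 2 alone both passed (0.0129 and 0.0160). With an expectation from distance alone, the ratios were 17.03 for the nearer and 11.2 for the farther window.

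**Figure D2:**
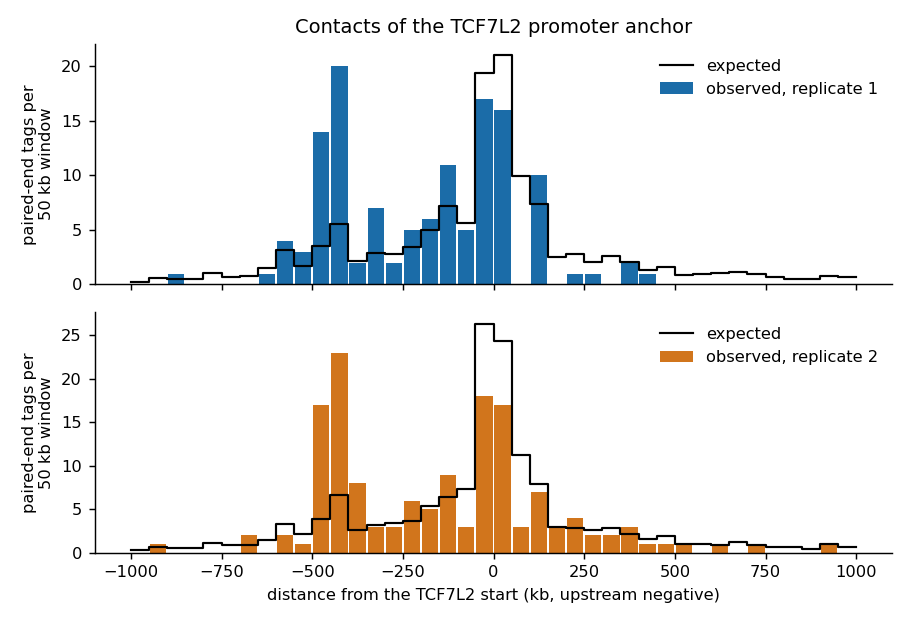
Contacts of the TCF7L2 promoter anchor (paired-end tags per 50 kb window, bars) by distance from the start in kb, with upstream negative, for each replicate, and the expected count as a black line. In both replicates, the windows 400 to 500 kb upstream rise above the line, and the window 50 to 100 kb downstream lies below it.

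VTI1A (chr10:114206973-114578503) encodes a SNARE protein of vesicle transport and runs in the same direction as TCF7L2, with no start of another protein-coding gene between the starts of the 2 genes. The segment 400 to 500 kb upstream of TCF7L2 contains 11 anchors, of which 10 had counts with the TCF7L2 promoter, 9 in both replicates, and all 10 had more than expected. Its contacts numbered 34 in replicate 1 and 40 in replicate 2, which were 26.36% and 27.03% of all contacts of the TCF7L2 promoter. The counts were thus spread over the segment and not held by 1 anchor. The segment was picked for its summed counts with this promoter, so anchors above expectation there are no separate support. Its share of the contacts was similar in both replicates.

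The strongest distal loop of the set joined the TCF7L2 promoter to chr10:114274271-114281082, an intron of VTI1A shown above with its central sequence. It had 7 counts in each replicate, 4.03 times the expected 3.47 (2.20 to 6.77). The anchor chr10:114290598-114302960, which holds exon 5 of VTI1A, had 7 and 5 counts, 2.68 times the expected 4.48 (1.39 to 4.68). The intronic anchor chr10:114230715-114242893 had 5 and 6 counts, 4.51 times the expected 2.44 (2.25 to 8.08). The 3 loops had similar counts, and their intervals overlapped.

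The promoter of VTI1A itself, whose anchor also holds the promoter of ZDHHC6, a palmitoyltransferase gene, had 1 count in each replicate with the TCF7L2 promoter, 2.25 times the expected 0.887 (0.273 to 8.14). At this depth, the start of VTI1A cannot be told apart from either the segment or the expectation. Another loop of 7 counts (5 and 2) reached chr10:114600952-114605553 between the 2 genes, 4.01 times the expected 1.75 (lower bound 1.61). It was named after its values were seen.

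The contacts of the VTI1A segment with other places were then followed, a choice made after the windows had been seen and without a test. To the TCF7L2 promoter anchor they were 3.48 times the expected count (2.73 to 4.37), with the count itself kept in the depth. To the other 6 anchors from 0 to 50 kb downstream of the start, the segment had 13 counts in replicate 1 and 22 in replicate 2, 2.06 times the expected count (1.43 to 2.86). Closer to the segment, between 150 and 300 kb upstream of TCF7L2, the ratio was 1.00 to 1.06. At 300 to 350 kb upstream it was 0.710, and in the 50 kb adjoining the segment 0.686. Nearer to the start, the ratio was 1.27 at 100 to 150 kb upstream and 1.15 at 50 to 100 kb upstream. In the 50 kb before the start it was 1.93 (1.41 to 2.58). From 100 to 400 kb downstream of the TCF7L2 start, it was 1.74 to 2.14. Contacts of the segment above expectation were therefore not limited to the promoter anchor. Because the segment was picked by its counts with that anchor, the ratio there cannot be ranked against the others. The expectation takes the distances from the reference genome, and whether the order of this region in HCT116 is that of the reference was not tested.

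**Figure D3:**
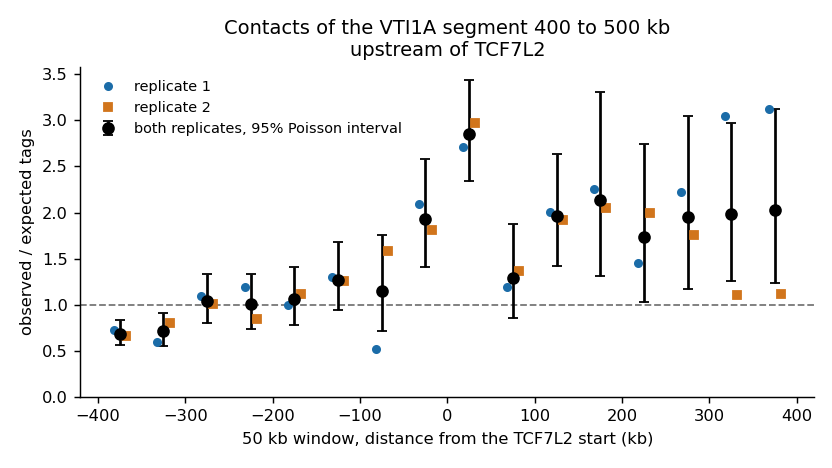
Ratio of observed to expected tags between the VTI1A segment 400 to 500 kb upstream of TCF7L2 and each 50 kb window, by distance of the window from the TCF7L2 start in kb, for both replicates together (black, exact 95% Poisson interval) and each replicate (colours), with a dashed line at 1. The ratio is 2.85 at 0 to 50 kb, a window that holds the promoter anchor by which the segment was picked. Without that anchor it is 2.06. From 300 to 150 kb upstream, the ratio lies near 1, and in the 50 kb before the start it is 1.93.

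Downstream of its start, the TCF7L2 promoter had few contacts with part of its own gene. The window from 50 to 100 kb had 0 counts in replicate 1 and 3 in replicate 2, with 9.93 and 11.3 expected, whereas the next window, from 100 to 150 kb, had 10 and 7 with 7.402 and 7.89 expected. Of all contacts of the promoter, 20.9% reached its own gene body, with 30.8% expected, and without the VTI1A segment 28.6%, with 33.4% expected. A lack of contacts was not part of the window test, so these are values without a test.

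Among all contacts within 1 Mb, those of TCF7L2 were tilted upstream. In replicate 1, 98 of 129 contacts (76.0%) were upstream, and in replicate 2, 101 of 148 (68.2%). Together these were 71.8% (exact 95% binomial interval, 66.1 to 77.1%) with 54.2% expected (two-sided exact binomial test, adjusted p = 3.00e-06 over 11582 genes). Of these genes, 251 were called (2.17%), 120 of them with more contacts upstream (1.04%). In replicate 2 alone the difference did not pass (exact binomial test, adjusted p = 0.0755). Without the VTI1A segment, which was set apart only once the values were known, 61.6% of 203 contacts were upstream (54.5 to 68.3%) with 50.2% expected. In replicate 1 the share was 67.4% (57.0 to 76.6%) with 49.7% expected. In replicate 2 it was 56.5% (46.6 to 66.0%) with 50.7% expected, so that interval covered the expected share.

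Contacts of the TCF7L2 promoter also reached far. In replicate 1, 91 of 129 contacts (70.5%) were at 100 kb to 1 Mb, and in replicate 2, 107 of 148 (72.3%). Together these were 71.5% (65.8 to 76.7%) with 56.7% expected (two-sided exact binomial test, adjusted p = 0.000244 over 11583 genes). Of these genes, 143 were called (1.23%), 93 of them with more far contacts (0.803%). The call was lost in replicate 1 alone (exact binomial test, adjusted p = 0.223) and when contacts from 50 kb counted as far (0.324), and without the VTI1A segment the share was 61.1% with 53.0% expected.

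RNF43 (chr17:56431037-56494895, minus strand) had many of its contacts close by, within its own gene. Its promoter anchor chr17:56493943-56496164 holds exon 1. In the first 50 kb downstream of the start, replicate 1 had 13 counts with 8.92 expected and replicate 2 had 24 with 15.6 expected. Together the 37 counts were 1.498 times the expected 24.7 (1.05 to 2.06), which was not called (adjusted p = 1.0, unadjusted exact Poisson p = 0.0124). Of all contacts, 43.3% were with the gene body of RNF43, with 32.9% expected.

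The loop with the most counts at 20 kb or more reached the intron at chr17:56471208-56478455, with 5 counts in each replicate and a ratio of 1.64 to the expected 6.12 (0.784 to 3.01). The intron at chr17:56460761-56462551, which holds the 2 TCF/LEF matches shown above, had 1 and 3 counts, 3.87 times the expected 1.03 (1.05 to 9.90). The anchor chr17:56307104-56313749, at the promoter of LPO, which encodes lactoperoxidase, had 0 and 3 counts, so this loop was absent from replicate 1. Of the contacts of RNF43, 28 of 90 (31.1%) were at 100 kb or more, with 43.98% expected, which did not pass (exact binomial test, adjusted p = 0.265).

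ZNRF3 (chr22:29279560-29453476, plus strand) also contacted its own introns. The intron at chr22:29366825-29375228 had 3 counts in replicate 1 and 1 in replicate 2, 4.18 times the expected 0.958 (1.14 to 10.7). The intron at chr22:29424121-29430336 had 0 and 4 counts, 3.20 times the expected 1.25 (0.871 to 8.19). Upstream, chr22:29252663-29254219 had 2 and 1 counts with 1.26 expected. Counts of single loops thus varied between the replicates, and 40.8% of the contacts of ZNRF3 lay in its gene body, with 32.6% expected. Its shares upstream (37.7%, with 43.5% expected) and at 100 kb or more (47.8%, with 46.7% expected) were not called.

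AXIN2 (chr17:63524681-63557766, minus strand) had its 44 contacts spread over 35 loops with at most 2 counts. Of the 3 loops named by the rule, 2 led upstream into CEP112, a gene of a centrosomal protein, at chr17:64146587-64151724 and chr17:63954542-63958860. Each had 0 counts in replicate 1 and 2 in replicate 2, with 0.0709 and 0.0932 expected. The other, to chr17:63237575-63241312 downstream, also had 0 and 2 counts and lies in no protein-coding gene. The window 300 to 350 kb downstream had 2 and 4 counts with 1.30 expected (adjusted p = 0.614, exact Poisson test), and 32 of 44 contacts (72.7%) were at 100 kb or more, with 62.3% expected (exact binomial test, adjusted p = 0.690).

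LGR5 (chr12:71833578-71980090, plus strand) had 26 contacts in 26 loops, each with a single count, and no loop was found in both replicates. Far contacts made up 7 of 8 in replicate 1 and 16 of 18 in replicate 2. Together these were 88.5% (69.8 to 97.6%), with 56.1% expected, just outside the threshold (exact binomial test, adjusted p = 0.0567). The share passed with anchors within 5 kb of start sites (exact binomial test, adjusted p = 0.0499), where the counts of LGR5 were the same and other genes changed the adjustment. By the rule, the loops named are those to introns of PTPRR, a phosphatase gene, at chr12:71178161-71182777 and chr12:71175279-71176836, and to an intron of TRHDE at chr12:72829406-72832395, all with 1 count in replicate 2.

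CTNNB1 (chr3:41240996-41281934, plus strand) had the lowest level per kb over both replicates, though not separable from that of LGR5 and above LEF1 and LGR5 in replicate 1. Its 18 contacts were in 15 loops, and none lay in its own gene body, where 15.6% were expected. The anchor chr3:41229337-41235097, 8.68 kb upstream, had 1 and 2 counts, and chr3:41200211-41202749 had 1 count in each replicate with 0.466 expected. The other loops named by the rule, to chr3:40538282-40540380 and to an intron of ULK4 at chr3:41645763-41647105, had 1 count in replicate 1. No count joined the CTNNB1 anchor with itself in either replicate, which allows up to 3 counts.

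LEF1 (chr4:108968704-109090088, minus strand) had 10 contacts, and 9 of these were in replicate 2. Loops named by the rule led upstream to chr4:109423198-109424684, with 1 count in replicate 1, and to chr4:109723730-109727060 and exons 15 to 18 of COL25A1 at chr4:109809560-109821536, with 1 count each in replicate 2. LEF1 and CTNNB1 had fewer than 20 contacts and were not tested for shares or replicates.

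For ASCL2 (chr11:2289728-2291818, minus strand), the nearest anchors were chr11:2298344-2300165, 6.14 kb from the start site, and chr11:2275396-2279018, at 13.2 kb. An anchor was present for 83.1% of protein-coding genes. The lack of an anchor gives no level of ASCL2, and no anchor was found within 5 kb either.

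**Figure D4:**
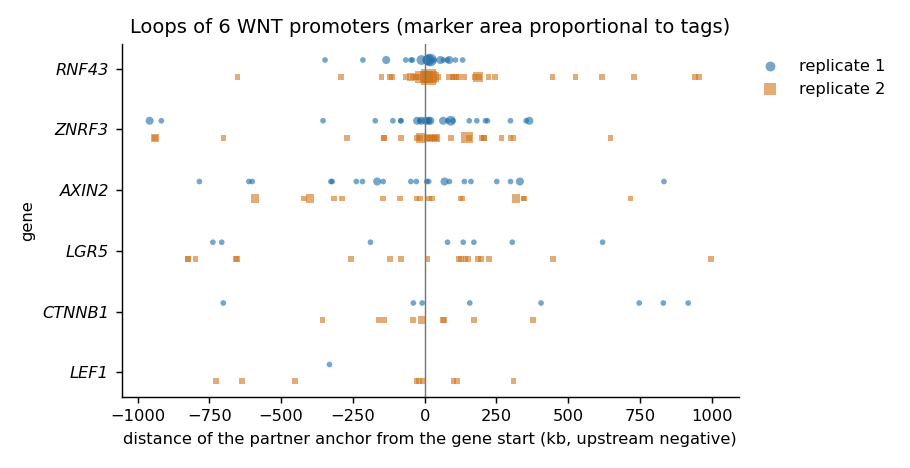
Loops of the 6 other genes by distance of the partner anchor from the gene start in kb, with upstream negative, for replicate 1 (circles) and replicate 2 (squares), with marker area proportional to the count. RNF43 and ZNRF3 have their larger markers near the start and downstream, whereas all markers of LGR5 stand for a single count.

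**Figure D5:**
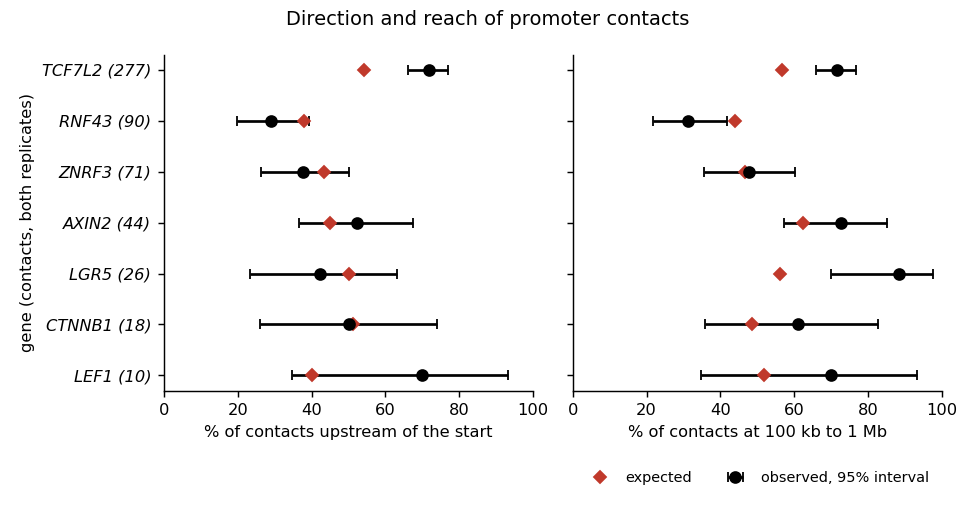
Share of contacts upstream of the start (left) and at 100 kb to 1 Mb (right) in % for the 7 genes, with exact 95% binomial intervals over both replicates and the expected share as a red diamond. TCF7L2 lies to the right of its expected share in both panels, 71.8% against 54.2% and 71.5% against 56.7%.

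Loops of at least 20 kb with summed counts of 5 or more, a limit used in the study for strong interactions, were counted. TCF7L2 had 13 and RNF43 had 1, or 2 of the 7 genes, whereas 1932 of 16467 protein-coding genes (11.7%) had such a loop. The RNF43 loop spanned 20.2 kb, just past the limit, and its interval covered the expected count. This limit takes no account of anchor width, and the TCF7L2 anchor is 15.1 kb wide, beside a median of 2541 bp for all anchors. Promoters of other genes took 12.2% of the contacts of RNF43, with 11.7% expected, 11.3% of those of ZNRF3, with 12.1% expected, and 1.08% of those of TCF7L2, with 1.92% expected. ZNRF3 contacted the promoter of XBP1, a transcription factor of the unfolded protein response, with 1 count in each replicate from the anchor at its start, and that of PITPNB, which encodes a phosphatidylinositol transfer protein, with 2 counts in replicate 1. RNF43 contacted the promoter of TSPOAP1 with 2 counts in replicate 1 and 1 in replicate 2, and AXIN2 and CTNNB1 contacted none.

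None of the 5 genes with at least 20 contacts differed between the replicates beyond counting error (two-sided exact binomial test, adjusted p = 1.0 for each, 0 of 11616 genes called, 0%). The test was made against the ratio of the replicates in the contacts of all protein-coding promoters within 1 Mb. RNF43 passed without adjustment (exact binomial p = 0.0352), as did 420 of all genes (3.62%).

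Of 56 other WNT pathway genes, 52 had an anchor, with a median of 7.65 contacts per kb over both replicates compared with 9.87 for the 7 genes above. A loop of at least 20 kb and 5 counts was found for 6 of them (11.5%), close to the 11.7% of all protein-coding genes with an anchor. By role, these were 3 of 13 of the destruction complex and its regulators, 2 of 11 nuclear effectors, 1 of 18 targets and feedback inhibitors and 0 of 10 receptors and their regulators. No window was called in these 52 genes (exact Poisson test, 74 of 1964 windows, or 3.77%, with an unadjusted p under 0.05, compared with 3.07% of all windows). Of 42 genes tested for shares, CSNK1A1, the gene of the kinase CK1α, was called for its side, with 37.7% of contacts upstream and 62.8% expected (exact binomial test, adjusted p = 0.00302). The target PHLDA1 had 72.0% of its contacts at 100 kb or more, with 45.3% expected (exact binomial test, adjusted p = 0.000654), and DKK1, a secreted inhibitor of LRP receptors, had 71.1%, with 50.8% expected (adjusted p = 0.0456). Among all protein-coding genes tested, 2.17% were called for their side and 1.23% for their distance share.

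By contacts per kb of anchor, CSNK1A1 was the highest of these 52 genes, with 40 and 37 contacts, or 30.0 per kb over both replicates, below RNF43. In contacts alone, the coactivator gene BCL9L had the most, 109 and 114 in a wide anchor, or 8.82 per kb. Per kb, CSNK1A1 was followed by PHLDA1 (17.7 per kb), the kinase gene GSK3B (16.3), the cell surface receptor gene CD44 (15.4), the tankyrase gene TNKS2 (15.3) and DVL2 (15.1), all below TCF7L2. The lowest levels per kb were found for AXIN1 (1.97), which encodes the constitutive relative of AXIN2, the R-spondin gene RSPO3 (1.87) and AMER1 (0.852), a regulator of the destruction complex.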

How the data were processed

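H3K27ac HiChIP of 2 replicates of HCT116 was analysed. The authors digested chromatin with MboI, processed the reads with HiC-Pro and hichipper (versions not given in the sources used here) and deposited raw counts of paired-end tags per anchor pair of a chromosome, without normalization. The build was hg19 per the labels, and 250216 of 250217 anchors on chromosomes 1 to 22 and X started on an MboI site of that genome. Positions are printed as deposited.

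Genes were canonical transcripts of GENCODE release 44 on GRCh37. For the 8 genes, starts were given with the list, rounded to 0.1 kb. Distances were measured between anchor midpoints. Expected counts came from 60 distance classes and anchor weights balanced in 20 rounds. For single anchor pairs, the own count was left out (offset 0.5). Expectations for windows and for shares of contacts used weights in which these counts were kept. Window expectations were rescaled by the remaining contacts of the promoter. The code was tested on simulated data. Python 3.11.15, numpy 2.4.6, scipy 1.17.1, pandas 2.3.3, numba 0.67.0 and pysam 0.24.0 were used, and figures were drawn with matplotlib 3.10.9. The named loops are, per gene, the up to 3 of at least 20 kb with the highest summed count, ties going to the higher ratio. Of the other WNT genes, those called, the 6 highest and the 3 lowest per kb were named. The genes and lists were chosen with earlier results of these data known. Alternatives concerned replicates, anchors, distances, windows, thresholds and the expectation.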

Additional observations from a re-analysis of the deposited data

How the results depend on the processing

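With the expectation from distance alone, 20 loops of the WNT genes passed in place of 0, and 10 passed when only pairs with summed counts of at least 2 were tested, which lowers the number of tests. With either replicate left out, 0 passed. The 2 windows of TCF7L2 became 1 with windows of 100 kb, which join both, and 1 to 2 with a replicate left out. The upstream tilt of TCF7L2 was called for 0 to 1 genes with a replicate left out (lost without replicate 1). Genes with unequal distance shares, 1 in the main setting, numbered 2 with anchors within 5 kb of the start site and 2 with distance alone, where LGR5 was added, and 0 with far contacts from 50 kb, and 0 to 1 with a replicate left out (lost without replicate 2). The contact count per replicate, 268, was 143.5 with counts of at least 2 in the replicate and 236 to 300 with a replicate left out. Genes with a strong distal loop numbered 1 rather than 2 from 50 kb. No called direction was reversed, whereas shares close to expectation that were not called, such as the far share of ZNRF3, changed sides between settings. The thin counts limit single loops, and the Poisson and binomial tests hold counting error only. No paired analysis was possible because there was only 1 group.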

Other observations

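Beyond 1 Mb, on the same chromosome, the promoters of the WNT genes had further counts, which entered no comparison. TCF7L2 had 91 counts in 87 loops, RNF43 40, LGR5 16, ZNRF3 12, AXIN2 10, LEF1 9 and CTNNB1 4. No pair had more than 2 counts, and for TCF7L2 a pair of 2 counts, 1 in each replicate, reached an intron of CCDC186 at chr10:115917520-115921240, 1.21 Mb away. The VTI1A anchor chr10:114290598-114302960, a partner of TCF7L2, had 3 counts in each replicate with chr10:112167636-112176995, at 2.12 Mb.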
